A study of Mus musculus with 2 samples.

Results

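The complement components of the mouse uterus were followed as 9 transcripts, chosen by gene symbol from the 32285 genes listed in both count matrices: C1qa, C1qb, C1qc, C1ra, C1s1, C4b, C3, Cfb and Serping1. All 9 were present, each as a single row. Uteri came from female mice aged 6 months and were profiled by droplet single-cell RNA sequencing of transcript 3′ ends. The control mice carried floxed Prickle1 alleles (Prickle1 f/f), and the conditional knockout mice (cKO) carried the same alleles with a Cre driven by Ltf, which is transcribed in uterine epithelium, so that deletion is aimed at epithelial cells. Both groups share the floxed alleles, and a separate genotype entry calls both C57BL/6J wild-type, so the groups follow the sample titles. The uteri of 3 mice were pooled for each group and gave a single library. No difference between the groups therefore has a replicate check, no p-value is given, and every interval is a 95% interval that covers counting error only.

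Complement is a cascade of secreted proteins. In the classical pathway C1q, built from the products of C1qa, C1qb and C1qc, binds its target and activates the proteases C1r and C1s, encoded in the mouse by C1ra and C1s1. C1s cleaves C4 and C2, and the resulting convertase cleaves C3, the protein on which all complement pathways converge. Factor B, the product of Cfb, supplies the protease of the alternative pathway, which amplifies C3 cleavage. C1 inhibitor, the product of Serping1, inactivates C1r and C1s. In the rodent uterus C3 is known as a secretory product of epithelium under oestrogen.

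The control library held 45035801 unique molecular identifiers (UMIs, counted transcript molecules) and the cKO library 57145553. Cells were barcodes in which 500 or more genes were detected and mitochondrial transcripts held no more than 20% of UMIs, which gave 3653 control and 4950 cKO cells with medians of 4650.0 and 5944 UMIs. The libraries shared 5 cell barcodes. Cells were sorted into 6 classes by a UMI of exactly 1 gate gene: Epcam (epithelial, 950 control and 104 cKO cells), Pdgfra (stromal, 628 and 1496), Actg2 (muscle, 299 and 536), Adgre1 (macrophage, 208 and 133), Flt3 (dendritic, 45 and 143) and Msln (mesothelial, 25 and 35). These gates took 59.0% of control and 49.4% of cKO cells. In each library the epithelial, muscle, macrophage and mesothelial gates held the highest level of every other marker listed for them, the stromal gate of 5 out of 6 markers and the dendritic gate of 4 out of 7. The mesothelial gate also held the stromal marker list at 11252 CPM (UMIs scaled to the class total) in control and 13059 CPM in cKO, close to the 13048 and 13472 CPM of the stromal gate, although all 25 control and 29 of 35 cKO cells carried another mesothelial marker. Prickle1 was too sparse in the epithelial gate to check the labels, with 14 UMIs in control (0.832 CPM, 0.455 to 1.40) and 4 in cKO (1.34 CPM, 0.364 to 3.42), and 3′ reads outside a deleted exon would not report its loss. Over all cells Prickle1 was higher in the cKO library, at 2.65 and 8.24 CPM (100 and 436 UMIs), as it was in the stromal gate, at 3.74 and 8.87 CPM (31 and 234 UMIs).

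The 9 transcripts fell into 3 patterns of source, shown in the plot of levels by class. C1qa, C1qb and C1qc were concentrated in the macrophage gate. C1ra, C1s1 and Serping1 were highest in the mesothelial gate and next in the stromal gate. C3 and Cfb were highest in the control epithelial gate, and C4b was spread over mesothelial, macrophage and stromal cells. The class with the highest level was the same in both libraries for 8 of the 9 members, against 55.8% of the 11298 genes ranked in the same way. By class, 3 members were highest in the macrophage gate in both libraries (7.83% of genes), 4 in the mesothelial gate (11.7%) and 1 in the epithelial gate (9.20%). The exception was C3, highest in the epithelial gate in control and in the mesothelial gate in cKO. For Cfb in cKO the epithelial and mesothelial intervals overlapped (34.7 to 49.7 and 19.3 to 62.1 CPM). With cells thinned to 1000 UMIs the count was 5 of the 9 members. At that depth C3 was found in 70.3% of epithelial (67.3 to 73.2) and 75.0% of mesothelial cells (53.3 to 90.2) in control. In cKO these shares were 31.7% and 73.5%. The dendritic gate held at most 11 UMIs of any member in either library.

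**Figure D1:**
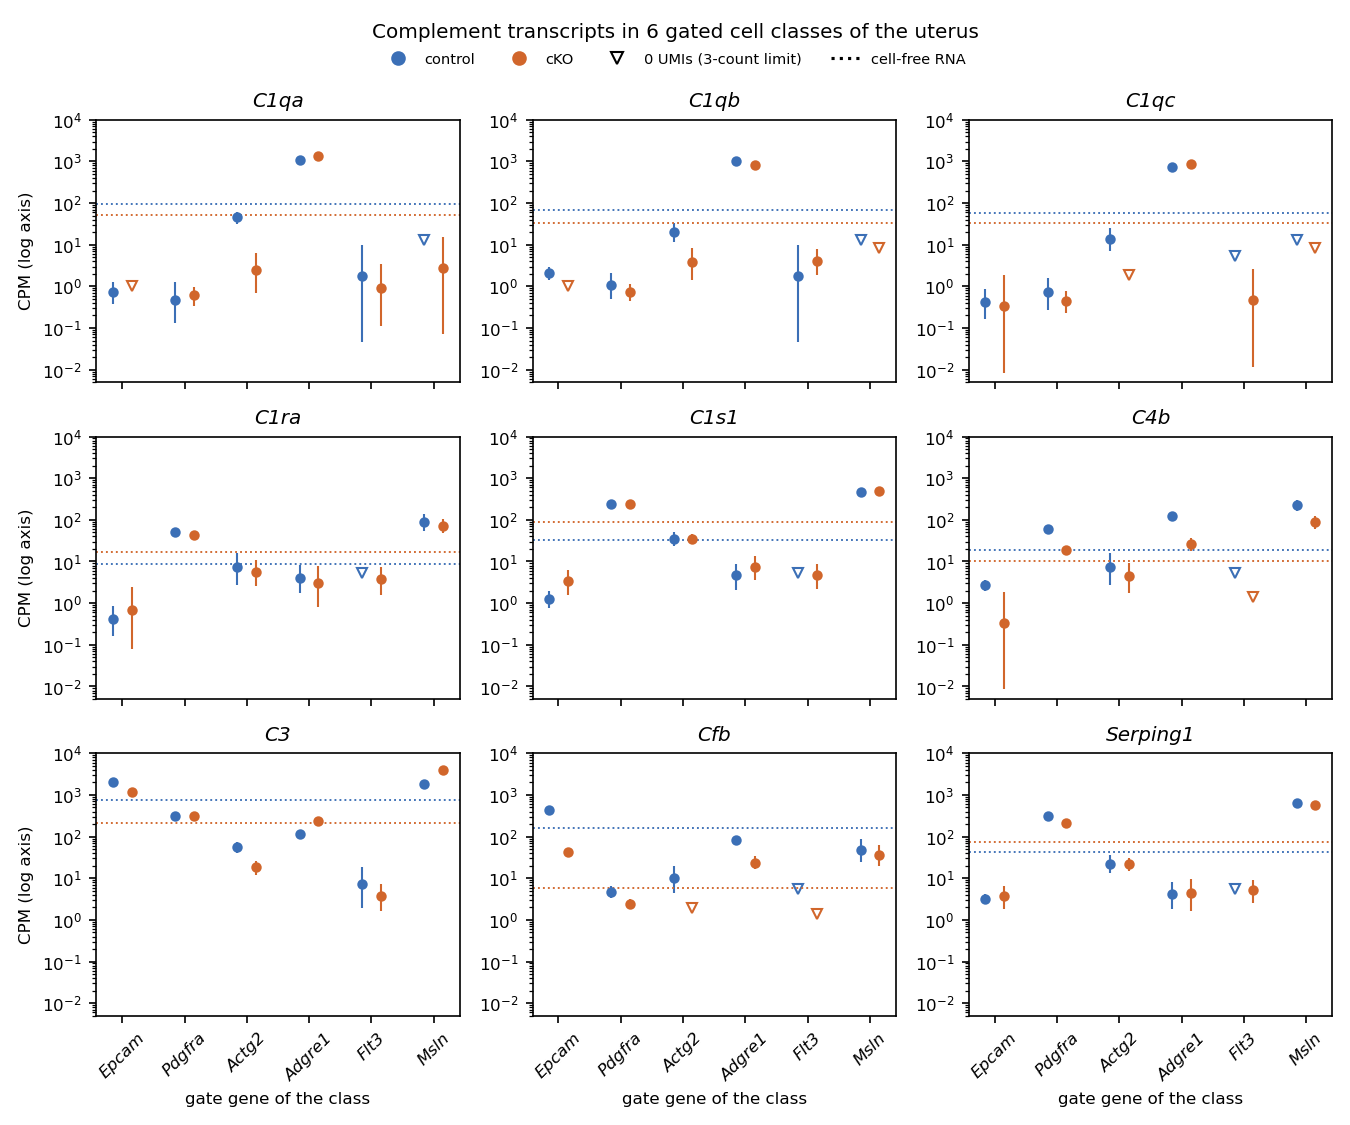
Level of each complement transcript in the 6 gated classes (CPM, log axis), control in blue and cKO in orange, with bars for the 95% counting interval, open triangles for classes with 0 UMIs drawn at the level of 3 counts, and dotted lines for the level in cell-free barcodes. The C1q genes stand out in the Adgre1 gate, C1ra, C1s1 and Serping1 in the Pdgfra and Msln gates, and Cfb is 426 CPM in the control Epcam gate and 41.7 CPM in that of the cKO.

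Of 54 pairs of member and class, 31 held at least 20 UMIs over both libraries and were counted. Between cKO and control, 2 of these 31 differed by at least 2-fold upward, while the share over all genes counted in the same way was 13.2%. Another 10 of the 31 differed by at least 2-fold downward, against 6.38% over all genes. With TMM scaling between the libraries of a class the counts were 0 and 11. By class, 4 of 6 epithelial pairs differed in either direction (36.4% of epithelial genes), 1 of 8 stromal (12.4%), 3 of 5 muscle (10.7%), 2 of 6 macrophage (14.1%) and 2 of 6 mesothelial (17.4%), and no dendritic pair could be counted (22.0% of dendritic genes). The median log2 ratio over the 31 pairs was -0.30. Of the 10 lower pairs, C1qa, C1qb and C3 in the muscle gate and C1qb and C4b in the epithelial gate were at levels below the cell-free RNA of their library in both groups. The other 5 were C4b in stromal, macrophage and mesothelial cells and Cfb in epithelial cells and macrophages. A level below that of cell-free RNA does not show the source of the UMIs. Cell-free RNA was estimated at between 1.97% and 5.66% of UMIs in the epithelial and muscle gates. The median gene itself differed between the libraries, by a log2 ratio of 0.39 in the epithelial gate, 0.28 in dendritic, 0.22 in mesothelial, 0.20 in macrophage, 0.11 in muscle and -0.03 in stromal cells. Values relative to that median are given for C3.

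**Figure D2:**
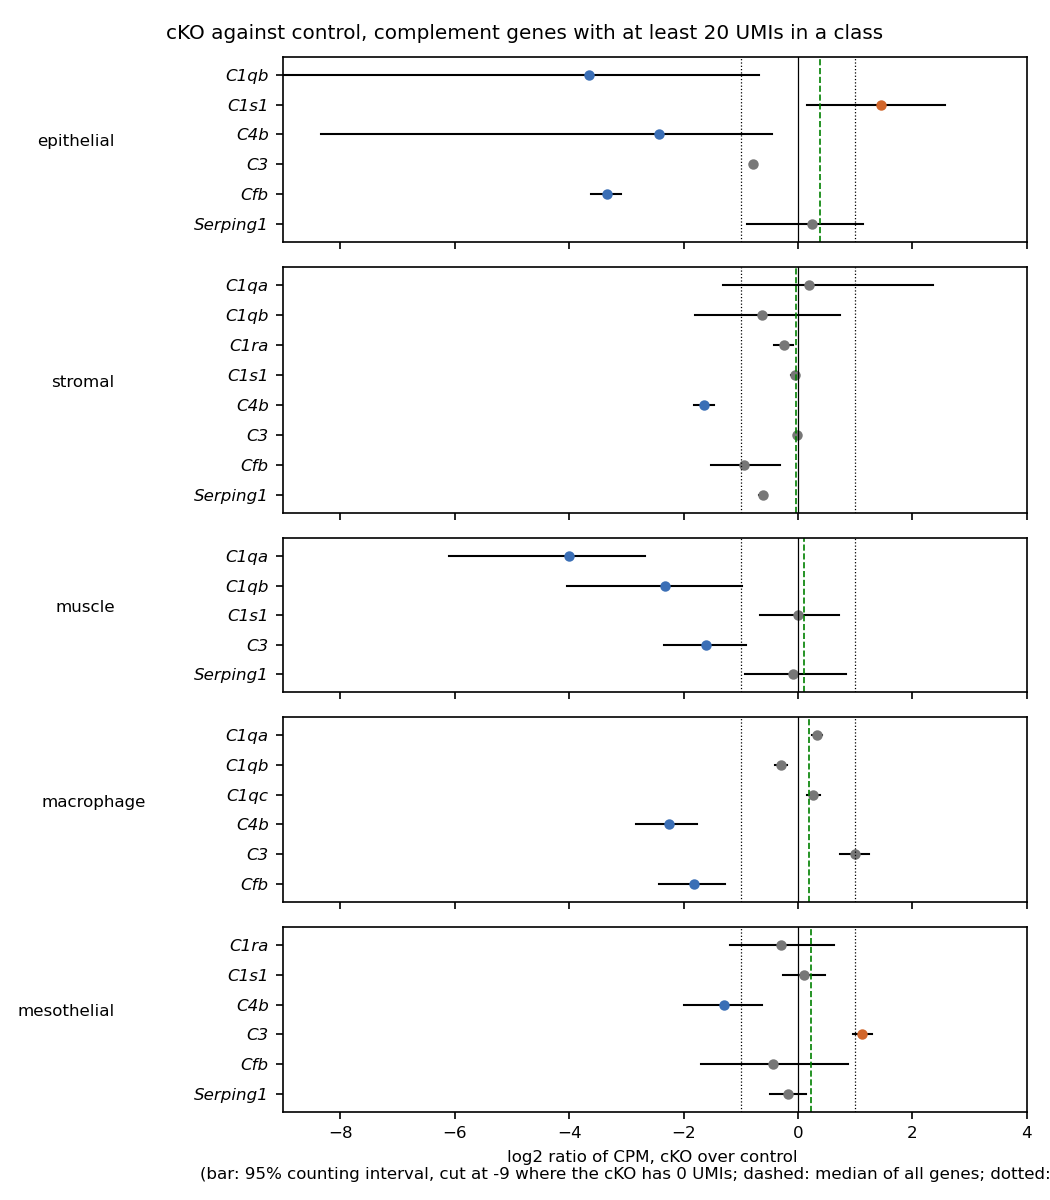
Log2 ratio of CPM in cKO over control for the 31 counted pairs, by class, with 95% counting intervals. Blue points are at least 2-fold lower and orange points at least 2-fold higher in cKO, the dotted lines mark 2-fold and the dashed green line is the median of all genes in the class. C4b lies below the lower 2-fold line in all 4 classes where it was counted, and C3 lies on different sides of 0 in different classes.

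The C1q genes lie together on chromosome 4 of GRCm38, all on the minus strand: C1qb (ENSMUSG00000036905) from 136880129 to 136886187, C1qc (ENSMUSG00000036896) from 136889804 to 136893065 and C1qa (ENSMUSG00000036887) from 136895917 to 136898803. Because their transcripts shared a single source, the start regions of C1qb and C1qc are shown, each from 250 bases before to 50 bases after the RefSeq start (GRCm38.p6, minus strand, 5′ to 3′, at chr4:136886151-136886450 and chr4:136892865-136893164). RefSeq windows were at hand for 5 of the 9 members. C1qa, C4b, Cfb and Serping1 had none. Each window was searched on both strands for 6 motifs: those of PU.1 (a factor of myeloid cells), C/EBP, STAT and NF-kB, the interferon-stimulated response element and the TATA box. Capitals mark every match.

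C1qb: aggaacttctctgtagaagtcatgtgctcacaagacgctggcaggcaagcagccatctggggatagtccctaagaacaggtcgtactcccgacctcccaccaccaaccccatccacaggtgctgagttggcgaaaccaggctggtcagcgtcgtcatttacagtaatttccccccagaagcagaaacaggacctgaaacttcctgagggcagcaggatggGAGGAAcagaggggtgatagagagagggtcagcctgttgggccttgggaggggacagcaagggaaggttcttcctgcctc

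C1qc: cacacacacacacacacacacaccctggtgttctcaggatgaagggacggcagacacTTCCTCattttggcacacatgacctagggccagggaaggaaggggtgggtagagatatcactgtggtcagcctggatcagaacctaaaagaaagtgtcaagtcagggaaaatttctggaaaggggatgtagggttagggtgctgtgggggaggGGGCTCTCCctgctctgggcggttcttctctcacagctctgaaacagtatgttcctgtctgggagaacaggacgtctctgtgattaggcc

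The C1qb window held the PU.1 letters, GAGGAA, beginning 30 bases before the start, and C1qc held them on the other strand beginning 193 bases before it. C1qc also held a match to the NF-kB letters GGGNNNTCC beginning 40 bases before the start. The PU.1 letters were found in 28.3% of all 32851 windows of this length and the NF-kB letters in 17.8%. A match describes these letters only.

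In the macrophage gate C1qa stood at 1091 CPM in control (1045 to 1139) and 1371 CPM in cKO (1309 to 1435). C1qb stood at 1018 CPM (974 to 1064) and 826 CPM (778 to 876). C1qc stood at 727 CPM (689 to 766) and 875 CPM (825 to 926). Over the whole gate each gene was thus within 1.26-fold between libraries, C1qa and C1qc higher and C1qb lower in cKO. In gated cells with a UMI of all 3, a set picked by C1q itself, the ratios of cKO to control differed from these. They were 1.55 for C1qa (1.45 to 1.65), 1.02 for C1qb (0.943 to 1.10) and 1.48 for C1qc (1.37 to 1.61). In control the next class lay 24.1-fold lower for C1qa, 50.7-fold lower for C1qb and 52.6-fold lower for C1qc. In cKO the next class held 1 UMI of C1qa, 9 of C1qb and 1 of C1qc. Of 11298 genes, 61 (0.540%) were at least 10-fold higher in the macrophage gate than in each other class in both libraries, and all 3 C1q genes were among them.

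Outside macrophages C1q lay below the level of cell-free RNA, which does not show that its UMIs there were cell-free. Cell-free RNA was estimated at 5.66% of control muscle UMIs. With its profile subtracted, the log2 ratio of C1qa in the muscle gate went from -4.01 to -6.62. The next class in control was muscle, with C1qa at 45.2 CPM, C1qb at 20.1 CPM and C1qc at 13.8 CPM, while cell-free barcodes of that library held 93.5, 67.1 and 56.2 CPM. Only 9 of 299 muscle-gated cells carried a C1qa UMI. In lymphoid cells, which were used as a reference class that should lack the genes, 1 of 206 control cells and 4 of 682 cKO cells carried C1qa. After thinning each cell to 1000 UMIs, C1qa was found in 56.4% of control macrophages (49.3 to 63.3) and 62.6% of cKO macrophages (53.7 to 70.9). At that depth none of 204 and 674 lymphoid cells carried C1qa, which allows a share of up to 1.47% and 0.445% of cells with a UMI among 1000 and sets no limit at full depth. Before thinning the macrophage shares were 81.2% and 69.9%. The order of the libraries thus differed with depth, and neither share is read as a difference.

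At full depth the 3 subunits were mostly detected in the same cells, as the plot of subunits per cell shows. All 3 were found in 155 of 208 control macrophages (74.5%, 68.0 to 80.3) and 86 of 133 cKO macrophages (64.7%, 55.9 to 72.7). Cells with 1 or 2 subunits made up 29 and 9 cells. Cells with none were 24 in control (11.5%, 7.53 to 16.7) and 38 in cKO (28.6%, 21.1 to 37.0), and after thinning to 1000 UMIs they were 19.6% (14.4 to 25.7) and 33.6% (25.6 to 42.4). These cells had medians of 4631 and 9998 UMIs, against 9823 and 10640.0 in cells with all 3.

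**Figure D3:**
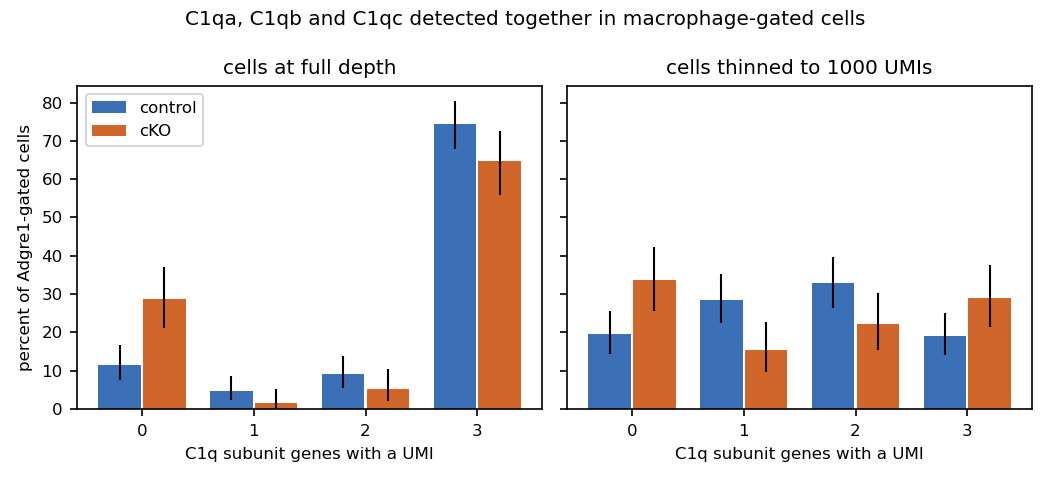
Share of Adgre1-gated cells with a UMI of 0, 1, 2 or 3 of the C1q subunit genes, at full depth (left) and after thinning to 1000 UMIs (right), with 95% binomial counting intervals. At full depth cells with all 3 subunits are the most common, and cells with none are 11.5% in control and 28.6% in cKO.

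Adgre1-gated cells without C1q differed from the others in more than C1q. A list of 8 tissue macrophage genes, among them the mannose receptor Mrc1 and the folate receptor Folr2, summed to 344 CPM in control and 323 CPM in cKO in the cells without C1q. In cells with all 3 subunits the same list summed to 11418 and 11518 CPM. A list of 8 monocyte genes summed to 875 and 3062 CPM without C1q and to 606 and 489 CPM with all 3 subunits. Apoe, an abundant lipid carrier of tissue macrophages, was 151 and 187 CPM without C1q and 7306 and 7242 CPM with all 3. Cells without C1q held 3.71% of the gate's Adgre1 UMIs in control and 8.17% in cKO, the share of that 1 gene and not of all UMIs. This split was chosen after the values were seen.

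The balance of the subunits differed between the libraries beyond counting error. C1qb made up 35.9% of the C1q UMIs of control macrophages (34.6 to 37.2) and 26.9% in cKO (25.6 to 28.3), while C1qa made up 38.5% and 44.6%. Cells with several gate genes gave C1qb shares of 37.4% (34.4 to 40.6) and 30.2% (27.7 to 32.7), and cells with no gate gene 32.8% (29.2 to 36.5) and 20.9% (14.9 to 27.9). In cell-free barcodes the shares were 30.9% (27.1 to 35.0) and 27.4% (22.2 to 33.1), whose intervals overlap.

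Over all cells of a library C1q was lower in cKO, at 47.8 against 75.0 CPM for C1qa, 30.2 against 48.4 CPM for C1qc, and 2.31-fold lower for C1qb. Adgre1-gated cells were 5.69% of control cells and 2.69% of cKO cells. A whole-library sum holds both the number of macrophages and the C1q RNA of each. Inside the macrophage gate the ratio of cKO to control was 1.26 for C1qa, 1.20 for C1qc and 0.811 for C1qb. The macrophage gate held between 65.2% and 68.6% of the UMIs of each subunit in either library, and the largest remaining share, from 10.8% to 24.0%, lay in cells with several gate genes.

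C1ra and C1s1 are neighbours on chromosome 6 of GRCm38 with their 3′ ends facing each other: C1ra (ENSMUSG00000055172) runs from 124512405 to 124523443 on the plus strand and C1s1 (ENSMUSG00000038521) from 124530345 to 124542359 on the minus strand. Their windows, at chr6:124512371-124512670 (plus strand) and chr6:124542310-124542609 (minus strand, the more upstream of 2 listed starts), are shown because the proteases of the same complex both had their highest levels in the mesothelial gate and then the stromal gate.

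C1ra: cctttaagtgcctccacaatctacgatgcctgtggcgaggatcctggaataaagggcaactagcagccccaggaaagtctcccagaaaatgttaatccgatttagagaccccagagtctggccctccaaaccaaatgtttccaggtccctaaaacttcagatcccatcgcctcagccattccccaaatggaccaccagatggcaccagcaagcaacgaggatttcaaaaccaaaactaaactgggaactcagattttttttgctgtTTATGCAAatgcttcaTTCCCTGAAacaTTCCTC

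C1s1: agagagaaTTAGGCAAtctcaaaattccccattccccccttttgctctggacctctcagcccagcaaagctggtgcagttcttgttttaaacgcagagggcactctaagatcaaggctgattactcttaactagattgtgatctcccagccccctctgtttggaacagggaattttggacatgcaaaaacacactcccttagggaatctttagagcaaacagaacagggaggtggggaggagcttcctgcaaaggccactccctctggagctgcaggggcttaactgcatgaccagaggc

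Both windows held the C/EBP letters, TTGCNNAA on either strand, found in 10.8% of all windows. In C1s1 they began 242 bases before the start, and in C1ra at base 17 after it. The C1ra window also held the STAT letters TTCNNNGAA, as did 8.30% of all windows, and a PU.1 match, both after the start. Neither held the interferon-stimulated response element, found in 3.44% of windows.

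Serping1 (ENSMUSG00000023224), which encodes their inhibitor, occupies bases 84765387 to 84775444 of chromosome 2 (minus strand). For the C1 proteases and the inhibitor the stromal gate was the main source in both libraries. C1s1 was 246 CPM in control stromal cells (235 to 257) and 237 CPM in cKO (231 to 243), a ratio of 0.963 (0.916 to 1.01). C1ra was 52.0 CPM (47.2 to 57.2) and 43.7 CPM (41.2 to 46.3), a ratio of 0.839 (0.751 to 0.940). Serping1 was 317 CPM (305 to 329.5) and 208 CPM (203 to 214), a ratio of 0.657 (0.627 to 0.689). None of the 3 differed by 2-fold. Serping1 differed most of the 3, with an interval that lies wholly below those of C1ra and C1s1.

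Summed over cells at full depth, the mesothelial gate was above the stromal gate for each gene, though for C1ra in control the intervals overlapped (54.1 to 137 against 47.2 to 57.2 CPM). C1s1 was 460.2 CPM in control and 495 CPM in cKO, C1ra was 88.5 and 72.7 CPM, and Serping1 was 655 and 581 CPM. The mesothelial level exceeded the stromal level 1.87-fold and 2.09-fold for C1s1, 1.70-fold and 1.66-fold for C1ra, and 2.06-fold and 2.79-fold for Serping1. After thinning to 1000 UMIs, C1s1 was found in 20.8% of mesothelial and 21.2% of stromal cells in control. In cKO its shares were 14.7% and 20.2%, so this order did not hold in the share of cells with C1s1. It held for Serping1, with intervals of 29.1% to 70.9% and 18.6% to 25.3% in control. In cKO Serping1 was found in 44.1% (27.2 to 62.1) and 17.0% (15.1 to 19.0). C1ra was found in 8.33% and 5.83% in control and 11.8% and 5.59% in cKO, with overlapping intervals. The mesothelial cells contributed little, between 1.61% and 3.70% of any of these genes, while stromal cells held between 64.2% and 71.6%. Muscle, macrophage, dendritic and epithelial gates held C1s1 at 35.5 CPM or less. Cell-free RNA held C1s1 at 32.6 CPM in control and 89.3 CPM in cKO, and only control muscle, at 35.2 CPM (23.4 to 50.8), was above it.

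Stromal cells tended to carry these transcripts together. All 3 of C1ra, C1s1 and Serping1 were detected in 211 of 628 control cells (33.6%) and 535 of 1496 cKO cells (35.8%), and none of them in 14.8% and 14.4%. Of control stromal cells with C1s1, 85.5% carried Serping1, and of those without it 35.8% did. Deeper cells detect more of every gene, and the part of depth in this pattern was not tested.

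The start window of C3 (ENSMUSG00000024164, chromosome 17 of GRCm38 from 57203970 to 57228136, minus strand) is shown because C3 was the member whose main source differed between the libraries. It covers chr17:57228087-57228386 on the minus strand.

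C3: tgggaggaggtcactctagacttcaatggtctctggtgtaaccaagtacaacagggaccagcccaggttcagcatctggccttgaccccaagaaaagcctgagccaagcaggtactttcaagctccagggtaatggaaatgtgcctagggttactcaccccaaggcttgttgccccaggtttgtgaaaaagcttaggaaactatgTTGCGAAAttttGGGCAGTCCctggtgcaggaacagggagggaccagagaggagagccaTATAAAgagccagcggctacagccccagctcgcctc

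The window held a C/EBP match beginning 45 bases before the listed start, an NF-kB match beginning 33 bases before it, and TATAAA beginning at base 15 after it. These letters were found in 10.8%, 17.8% and 13.6% of all windows. It held neither the interferon-stimulated response element nor the STAT letters.

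C3 is the central component of the cascade. In the epithelial gate it was 2086 CPM in control (2064 to 2108) and 1206 CPM in cKO (1167 to 1246), a ratio of 0.578 (0.558 to 0.598) or a log2 difference of -1.18 relative to the median gene. A C3 UMI was found in 877 of 950 control cells and in 50 of 104 cKO cells. In the mesothelial gate C3 was 1819 CPM in control (1647 to 2003) and 3966 CPM in cKO (3762 to 4177), 2.18-fold higher (1.95 to 2.44). Relative to the median gene that log2 ratio of 1.12 becomes 0.91, under 2-fold. Markers of other cells also differed in this gate, with the blood endothelial list at 13.3 and 612 CPM, the lymphatic endothelial list at 4.42 and 428 CPM and the T, NK or innate lymphoid list at 4.42 and 179 CPM. Their part in the C3 value was not tested, and in the cells with another mesothelial marker C3 was 2.27-fold higher (2.03 to 2.54), with Col1a1, a fibroblast collagen gene, 2.28-fold higher (1.60 to 3.31). In the stromal gate C3 was 309.6 and 307 CPM, a ratio of 0.992 (0.949 to 1.04). In macrophages it was 116 and 231 CPM, 1.99-fold higher (1.67 to 2.37), and the log2 ratio of 0.99 was 0.80 relative to the median gene. It was 0.32 with the inclusive gate, which lets in cells with other gate genes, and 0.37 with cells thinned to 1000 UMIs. In the same gate a list of 10 genes induced by tissue dissociation summed to 3431 CPM in control and 6328 CPM in cKO, whose part in the C3 value was not tested. Cell-free RNA held C3 at 777 CPM in control and 214 CPM in cKO, while lymphoid cells held 16.6 and 11.7 CPM.

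The epithelial value for cKO mixed unlike cells. Of the 104 cKO cells, 54 carried a single Epcam UMI. These held C3 at 33.5 CPM and the keratin Krt8 at 103 CPM, whereas the 255 such control cells held 1113 and 1826 CPM. The 50 cells with at least 2 Epcam UMIs held C3 at 1412 CPM (1366 to 1459) and Krt8 at 5289 CPM. The 695 control cells with at least 2 held C3 at 2147 CPM (2124 to 2170.2) and Krt8 at 4530.1 CPM. C3 was then 0.658 of control (0.635 to 0.681). In the cKO epithelial gate the list of 5 B or plasma cell genes summed to 1665 CPM, against 1.43 CPM in control, and 4910 of its cKO UMIs were Jchain, the joining chain of secreted antibodies, 2318 of them in 1 cell. The part of these cells in the C3 value was not tested.

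Ltf, itself a secretory gene of oestrogen-exposed epithelium, marked cells with more C3. Among cells with at least 2 Epcam UMIs, C3 was 2163 CPM with Ltf and 1006 CPM without it in control, and 1502 and 1088 CPM in cKO. Between libraries the interval for cells without Ltf included no change (ratio 1.08, 0.925 to 1.27; 54 control and 24 cKO cells, with medians of 3250.0 and 15832 UMIs), while those with Ltf were at 0.694 of control (0.669 to 0.721; 641 and 26 cells). In the whole epithelial gate C3 was lower in cKO without Ltf as well (0.759, 0.673 to 0.857). Within Ltf-positive cells of that gate Ltf itself was 7.34-fold lower (6.67 to 8.08), so a cell with Ltf was not alike in both libraries. Ltf also drives the Cre that only the cKO mice carry, and the part of that in Ltf detection was not tested. Of 10 oestrogen-induced epithelial genes, 8 were at least 2-fold lower in the cKO epithelial gate, against 10.3% of 12621 genes, with a median log2 ratio of -1.27. The splits by Epcam and Ltf were chosen after the values were seen.

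The source of uterine C3 shifted with these levels and with cell numbers, as the plot of sources shows. Epithelial-gated cells held 70.3% of all C3 UMIs in control and 16.4% in cKO. Stromal-gated cells held 5.13% and 36.8%, and cells with several gate genes 9.37% and 32.0%. Over all cells C3 was 1178 CPM in control and 404 CPM in cKO, 2.91-fold lower, with epithelial-gated cells at 26.0% and 2.10% of cells. Cells that carried both Msln and Epcam, which the gates leave out, held C3 at 1949.8 CPM in 23 control cells and 1.53-fold more in 45 cKO cells (1.45 to 1.62). Their make-up differed too, with the mesothelial genes Upk3b, Lrrn4 and Wt1 at 3.31, 2.98 and 2.07 times control and the keratin Krt8 at 0.443, and the part of this in C3 was not tested.

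**Figure D4:**
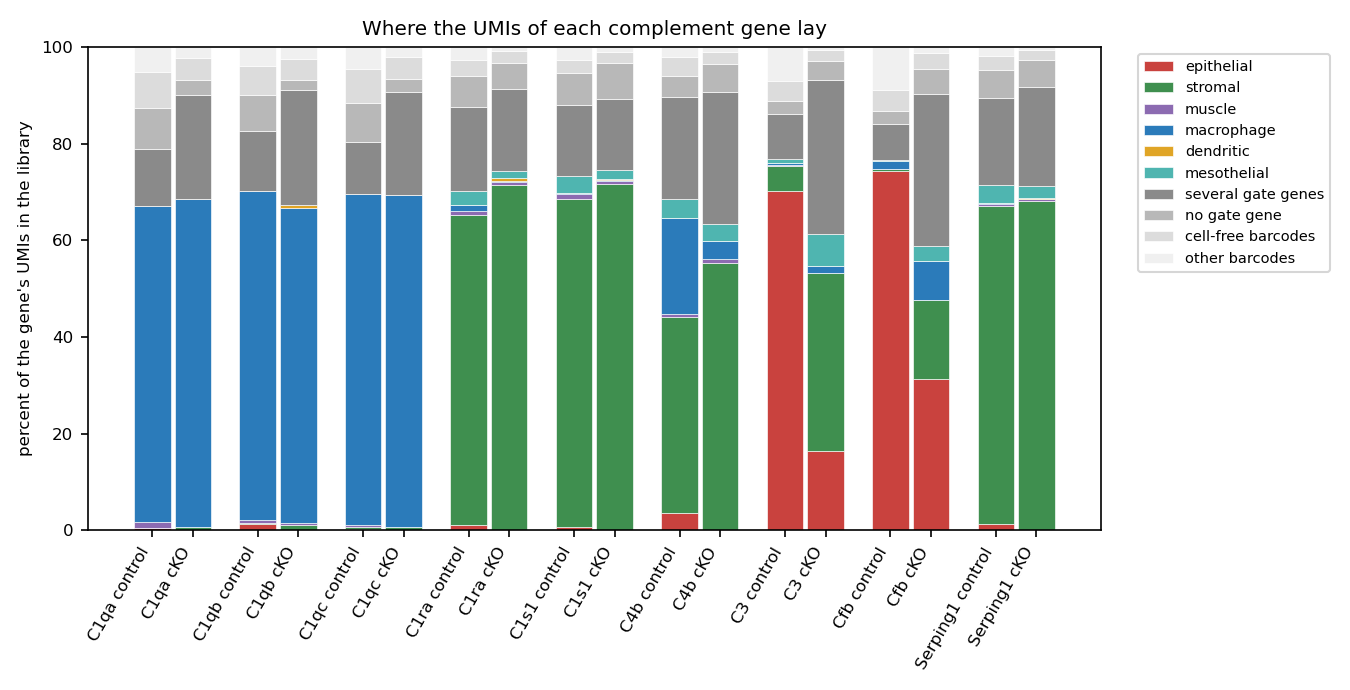
Percent of each complement gene's UMIs in a library that lay in each gated class, in cells with several or no gate genes, in cell-free barcodes and in other barcodes, control and cKO side by side. C1q bars are mostly macrophage and C1ra, C1s1 and Serping1 bars mostly stromal in both libraries, while the epithelial part of C3 is 70.3% in control and 16.4% in cKO and that of Cfb 74.3% and 31.3%.

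The level C3 value of the stromal gate was a sum over unlike subsets. Pdgfra-gated cells were split by the sole detection of 1 of 5 genes, chosen after values were seen. In cells with Cilp only, C3 was 284 CPM in control and 549 CPM in cKO (ratio 1.93, 1.72 to 2.18). In cells with Cxcl5 only it was 510.4 and 817 CPM (1.60, 1.39 to 1.85), and with Scara5 only 522 and 704 CPM (1.35, 1.14 to 1.60). In cells with Hsd11b2 only it was low in both, 49.9 and 68.7 CPM, and these cells were 6.21% of the control and 19.8% of the cKO stromal gate. In cells with none of the 5 genes, 54.9% of the control and 27.8% of the cKO gate, it was 243 and 282 CPM (1.16, 1.06 to 1.26). In cells with several of the 5 genes it was lower in cKO, at 427 and 318 CPM, as it was with Cyp26b1 only, at 268 and 138 CPM. Serping1 was likewise uneven, 1.18-fold higher with Cilp only (1.04 to 1.34), 2.56-fold lower with Hsd11b2 only (2.09 to 3.11) and 5.53-fold lower with Cyp26b1 only (3.88 to 7.97, on 92 and 50 UMIs). The similar stromal sums of C1s1 also held subsets that differed in both directions, with ratios of 1.67 with Cilp only (1.45 to 1.92), 1.73 with Cxcl5 only (1.40 to 2.17), 0.764 with several (0.693 to 0.844) and 0.417 with Cyp26b1 only (0.299 to 0.584). C1ra had ratios of 1.79 with Cilp only (1.30 to 2.50) and 0.593 with several (0.482 to 0.735).

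**Figure D5:**
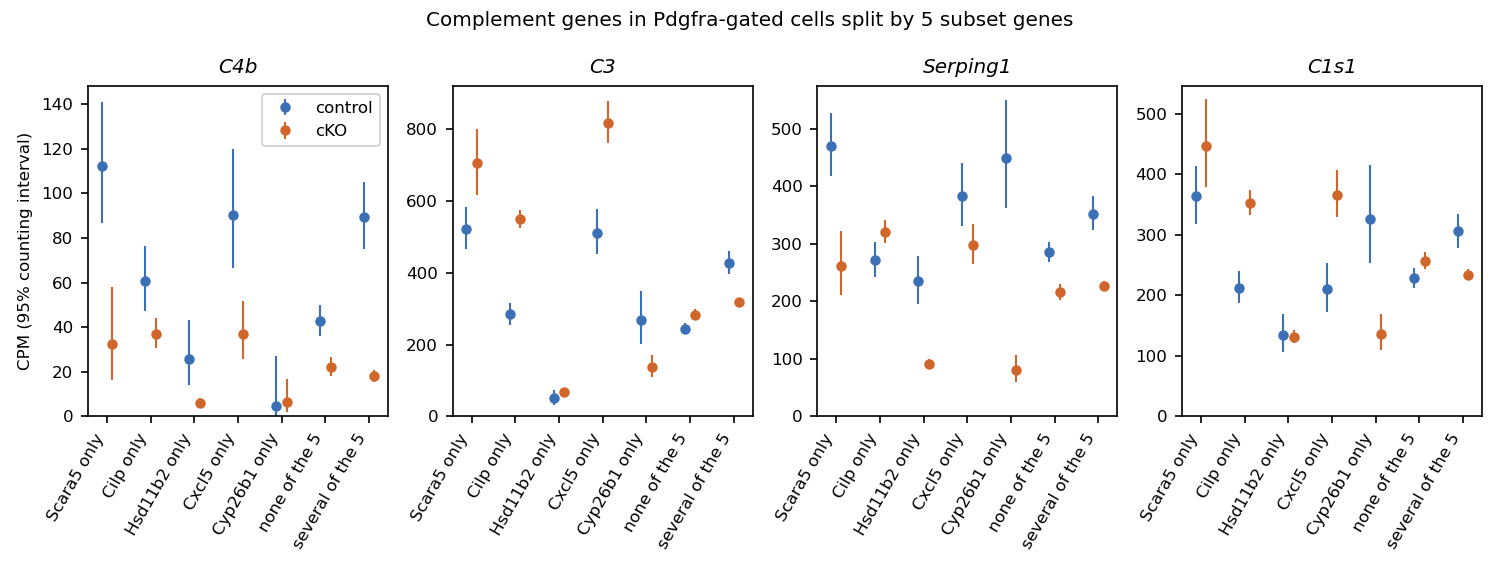
C4b, C3, Serping1 and C1s1 (CPM, linear axes from 0) in Pdgfra-gated cells split by detection of Scara5, Cilp, Hsd11b2, Cxcl5 or Cyp26b1, control in blue and cKO in orange, with 95% counting intervals. C4b is lower in cKO in every subset but Cyp26b1, which held 1 and 4 C4b UMIs, whereas C3 is higher in cKO in the Scara5, Cilp and Cxcl5 subsets and lower in cells with several of the genes.

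C4b (ENSMUSG00000073418, chromosome 17 from 34728380 to 34743882, minus strand) was at least 2-fold lower in cKO in stromal, macrophage and mesothelial cells. In the epithelial gate it was also lower, but on 45 and 1 UMIs (8.01-fold, 1.37 to 323), and with the inclusive gate the direction turned (log2 ratio 1.65). It encodes C4, the substrate of C1s. Its near-identical neighbour gene C4a had 22 UMIs in the control epithelial gate and 1 in that of the cKO, and reads that fit both genes may have been dropped or split, so the absolute level of C4b is uncertain. In stromal cells C4b was 60.1 CPM in control (55.0 to 65.6) and 19.3 CPM in cKO (508 UMIs), 3.12-fold lower (2.75 to 3.54). In macrophages it was 126 CPM (111 to 143) and 26.1 CPM (18.1 to 36.2), 4.85-fold lower (3.39 to 7.12). In mesothelial cells it was 221 CPM (164 to 292) and 89.4 CPM (61.2 to 126), 2.47-fold lower (1.56 to 3.98); this fold was 1.69 when cells with other gate genes were let in.

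Within the stromal gate the lower C4b held in every subset with enough UMIs: 1.64-fold with Cilp only (1.21 to 2.22), 2.44-fold with Cxcl5 only (1.54 to 3.89), 3.44-fold with Scara5 only (1.81 to 7.22), 4.31-fold with Hsd11b2 only (2.13 to 8.27), 1.92-fold with none of the 5 genes (1.49 to 2.48) and 4.94-fold with several (3.95 to 6.17). In macrophages with all 3 C1q subunits it was 4.92-fold lower (3.30 to 7.63), as large as without that restriction.

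Cfb (ENSMUSG00000090231, chromosome 17 from 34856374 to 34862518, minus strand) showed the widest difference among members above the cell-free level. In the epithelial gate it stood at 426 CPM in control (416 to 436) and at 41.7 in cKO (34.7 to 49.7), 10.2-fold lower (8.55 to 12.3), and 9.01-fold lower (7.55 to 10.8) among cells with at least 2 Epcam UMIs. Thinned to 1000 UMIs, 25.7% of control cells (22.9 to 28.6) and 0.962% of cKO cells (0.0243 to 5.24) carried a Cfb UMI. These shares are over the whole gate. Its 54 cKO cells with a single Epcam UMI held 0 Cfb UMIs, and the 255 such control cells held Cfb at 167 CPM. In macrophages it was 85.0 CPM (72.6 to 99.0) and 23.8 CPM (16.3 to 33.6), 3.57-fold lower (2.43 to 5.39). The control macrophage level is below the 159 CPM of that library's cell-free barcodes. Lymphoid cells held 0 Cfb UMIs in 206 control cells, which allows a level of up to 2.92 CPM there. The source of the macrophage Cfb UMIs was not tested. In stromal cells Cfb was 4.71 and 2.46 CPM and in mesothelial cells 48.7 and 36.3 CPM, neither 2-fold apart. Over all cells it was 222 and 7.20 CPM, 30.8-fold lower. That sum also holds the number of epithelial-gated cells, which were 26.0% of control and 2.10% of cKO cells.

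Cfb was lower in cKO with and without Ltf, under the limits of the Ltf split given for C3. Among cells with at least 2 Epcam UMIs cells with Ltf held 446 CPM in control and 60.8 in cKO (7.35-fold lower, 6.14 to 8.87), and cells without it 134 and 7.21 CPM (18.6-fold lower, 6.52 to 72.7, on 4 cKO UMIs). Of cKO epithelial cells, all 22 with a Cfb UMI also carried C3.

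Interferon-response genes were lower in cKO beside C4b and Cfb. A list of 18 such genes had a median log2 ratio of -3.61 in the epithelial gate (17 of 18 at least 2-fold lower, beside 10.3% of all genes there), -3.25 in the stromal gate (17 of 18, beside 12.4% of genes that differed in either direction) and -1.14 in macrophages (12 of 18, beside 14.1% in either direction). Its summed level was 3455 and 288 CPM, 1086 and 249 CPM, and 13714 and 4832 CPM in control and cKO. In the mesothelial gate, with 25 and 35 cells, 6 of the genes could be counted and their median was 0.19. Cells were then split at the cKO median of interferon-gene UMIs after thinning to 1000 UMIs, which was 0 in epithelial and stromal cells and 1 in macrophages. So low a limit does not make the interferon level alike in both libraries. Among cells at or under it, C4b was 2.91-fold lower in cKO stromal cells (2.53 to 3.36) and 5.67-fold lower in macrophages (3.69 to 9.02), and Cfb was at 0.125 of control in epithelial cells (0.102 to 0.152) and 2.19-fold lower in macrophages (1.29 to 3.81). Among cells over it, C4b was 4.19-fold lower in stromal cells (3.15 to 5.59) and 4.15-fold lower in macrophages (2.11 to 9.29), and Cfb was 12.4-fold lower in epithelial cells (7.72 to 21.3) and 4.15-fold lower in macrophages (2.11 to 9.29). C3 in macrophages was 2.86-fold higher among the cells at or under it (2.10 to 3.95) and 2.39-fold higher among the others (1.88 to 3.03). The part of interferon in these values was not tested.

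Other complement genes were read from a list of 54, of which 31 held at least 20 UMIs in a class. Each was read in the class with the highest level over both libraries together, among classes with at least 20 UMIs of it, which need not be its highest class in either library. There 5 (of 31) were at least 2-fold higher and 5 at least 2-fold lower in cKO, beside 13.2% and 6.38% over all gene and class pairs. Sparse genes among them, such as Hc and C4a, reached 20 UMIs only through the library with the higher level, which makes a call more likely. The shares over all pairs had the same minimum. Among recognition molecules, the ficolin gene Fcna was lower in macrophages, at 59.3 and 14.9 CPM (ratio 0.251, 0.148 to 0.406). Among the 3 counted of C2, C4a and the alternative pathway, C4a was lower in the epithelial gate on 22 and 1 UMIs, with an interval that includes no change (0.255, 0.00619 to 1.58). Of terminal components, C6 was lower in macrophages, at 32.5 and 5.21 CPM (0.161, 0.0620 to 0.350), and Hc, which encodes C5, was higher in dendritic cells on 3 and 39 UMIs. Of 5 fluid regulators, factor I (Cfi), which inactivates C3b and C4b, was lower in the epithelial gate, at 54.6 and 5.34 CPM (0.0979, 0.0557 to 0.160). Susd4 was lower there on 39 and 3 UMIs, with an interval that includes no change (0.432, 0.0854 to 1.36).

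Of 5 membrane regulators, Cd59a, which blocks the membrane attack complex, was higher in the epithelial gate, at 3.69 and 16.7 CPM (4.53, 3.06 to 6.68), although its level was highest in the mesothelial gate in both libraries, on under 20 UMIs. Csmd1 was higher in stromal cells on 5 and 57 UMIs. Of 10 receptors counted, the integrin chains Itgam and Itgax, parts of the complement receptors for iC3b, were higher in macrophages, at 122 and 263 CPM (2.16, 1.83 to 2.56) and at 17.0 and 34.2 CPM (2.01, 1.26 to 3.25). In the same gate the monocyte list summed to 614 CPM in control and 1194 CPM in cKO, and cells without C1q were 11.5% and 28.6%, whose part in the integrin values was not tested. The anaphylatoxin receptors were in macrophages as well, C3ar1 at 888 and 656 CPM and C5ar1 at 529 and 609.7 CPM, neither 2-fold apart; these receptors were chosen after their values were seen.

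The genes closest to each member in level over the 12 class values (6 classes in 2 libraries, log2 of CPM plus 10, 10714 genes searched) were as follows. C1qa was closest to Pf4, Msr1 and F13a1 (Pearson r from 0.99 to 1.00). C1qb and C1qc were both closest to Mmp13 and Fcrls, followed by C3ar1 for C1qb and Msr1 for C1qc (r = 1.00). C1ra, C1s1 and Serping1 were each closest to Efemp1, a matrix glycoprotein gene (r = 0.98, 1.00 and 0.99). The next were Mgp and Abi3bp for C1ra, Dcn and Mgp for C1s1, and Mgp and Evc2 for Serping1 (r from 0.98 to 0.99). C4b was closest to Abca9, Bmp2 and Slf2 (r from 0.92 to 0.95), C3 to Manba, Bsg and Nucb1 (r from 0.92 to 0.95) and Cfb to Hyal1, Sh3bgrl2 and Appl2 (r from 0.90 to 0.93). The 12 points share libraries and gates, so these values describe likeness only.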

How the data were processed

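Deposited values were raw UMI counts per gene and barcode, unfiltered. Per the submitters' processing notes they were made with Cell Ranger 6.1.1 on mm10; the matrix headers name Cell Ranger 4. Filters and annotation are not given in the sources used here. Gene positions come from GENCODE M21 (GRCm38), which held 99.61% of the gene identifiers, and start windows from RefSeq (GRCm38.p6).

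Counts were summed over the cells of a class and given as CPM of the class total, with exact Poisson intervals. Ratios have exact conditional binomial intervals and shares exact (Clopper-Pearson) ones. Log2 ratios carry a pseudocount of 0.5 UMI. A pair was called at 2-fold with at least 20 UMIs over both libraries. Named genes were all 9 members, other complement genes past 2-fold, and the 3 genes most like each member; other genes named, such as C5ar1, were chosen after their values were seen. A count of 0 was taken to allow 3 counts. Cell-free RNA was read from barcodes with at most 100 UMIs. Doublets were kept in the main values; a Scrublet-type score over 0.25 marked 31 control and 70 cKO cells, left out in an alternative. TMM factors came from edgeR 4.0.16. The calculation was tested on simulated data. Members, lists and splits were chosen with earlier results of these data known. One gene of the wider complement list is not reported here.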

Additional observations from a re-analysis of the deposited data

Results flagged for a closer look

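C3 and C1qa differed between the libraries in opposite directions in different cell classes, each with a counting interval on its own side of no change. The log2 ratio of cKO to control CPM for C3 was 0.99 in the macrophage gate and 1.12 in the mesothelial gate, but -0.79 in the epithelial gate and -1.61 in the muscle gate. For C1qa it was 0.33 in the macrophage gate and -4.01 in the muscle gate. With the inclusive gate, which lets in cells with other gate genes, these C1qa values were 0.12 and -0.10. With 1 library per group the difference between classes was not tested. The muscle values rest on 36 and 4 UMIs of C1qa and on 45 and 29 UMIs of C3. All of them lie below the cell-free level of their library, which does not show their source.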

How the results depend on the processing

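Each ratio was recomputed under 11 alternatives to the cell filters, gate, scaling, depth and doublets. Of 341 single values, 282 stayed inside the counting interval of the reported value, 55 left it without changing a called direction and 4 reversed. The reversals were in sparse epithelial pairs: C1qb at a log2 ratio of 0.37 with cells thinned to 1000 UMIs, C1s1 at -0.03 with at least 2 gate UMIs and -1.85 with the cell-free profile subtracted, and C4b at 1.65 with the inclusive gate, which lets in cells with other gate genes. The count of pairs at least 2-fold higher was 2 as reported, 9 with the inclusive gate, 5 with thinned cells, 5 with no minimum of UMIs, 4 without the top cell of each library and 0 with TMM factors. The count of pairs at least 2-fold lower ranged from 8 to 15. Members with the same highest class numbered 8 as reported and 5 with thinned cells. Of 12 called pairs, 4 stayed past 2-fold in every alternative: Cfb in epithelial cells, C4b in stromal cells, and both in macrophages. The log2 ratio of C3 in the mesothelial gate ranged from 0.69 with the inclusive gate to 1.24, and in the epithelial gate from -1.42 with the mean of cell CPM to -0.29 with the inclusive gate. In the macrophage gate it ranged from 0.32 with the inclusive gate to 1.12. Apart from the fewer cells or genes that an alternative itself leaves, the cause was not tested. No paired analysis was possible because each group is 1 library and the replicate number only names it. Sums from 25 and 35 mesothelial cells have the least depth.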
